A study of Mus musculus with 12 samples.

Results

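The lysosomal enzymes and the proton pump that acidifies the lysosome were followed as 47 named genes in alveolar macrophages of the mouse lung. They were chosen by symbol: 14 subunits of the vacuolar-type ATPase and its 2 accessory proteins, 11 proteases, 6 glycosidases, 7 lipid enzymes, activators and transporters, 4 membrane proteins, and 3 genes grouped as regulators and progranulin. All 47 symbols were paired with an Ensembl gene among the 43430 genes of the deposited table. They were measured by RNA sequencing of alveolar macrophages from naive lungs (4 libraries) and from transplanted lungs at 2 h (4 libraries) and 24 h (4 libraries) after reperfusion, when blood flow through the graft is restored. Every library is labelled as coming from male mice of 14 weeks with the genotype Cx3cr1gfp/+B6, in which 1 copy of the chemokine receptor gene Cx3cr1 carries a green fluorescent reporter, so the naive mice carry it too. Reperfusion libraries also carry Allo in their titles, without an explanation, and the labels name no donor or recipient strain beside this genotype. The labels do not tie the 4 libraries of a group to different animals, and the p-values then reflect how far these libraries spread, a spread that may be technical.

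The vacuolar-type ATPase pumps protons into the lysosome with the energy of ATP, and the low pH it makes is what the hydrolases inside need to work. Its V1 sector in the cytosol splits ATP, its V0 sector in the membrane carries the protons, and the pump can be regulated by parting and joining the sectors. Alveolar macrophages, which live in the air spaces, use lysosomes to break down inhaled particles, dying cells and surfactant, and many lysosomal genes share an E-box that the transcription factors TFEB and TFE3 bind.

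Values are RPKM, which divides a gene's reads by its length in kilobases and by the size of the library. Library totals read from the steps of these values were 6112586 to 11997945 reads, and a member had from 142 reads (Smpd1, the lowest) to 122954 reads (Ctsd, the highest) in a library. The lengths that the authors used are not given, so levels of different genes are not compared. On the scale of log2(RPKM + 1), libraries correlated at a Pearson's r of 0.968 to 0.987 within a group and 0.909 to 0.96 across groups. This was taken over 11419 tested genes that are not independent of each other. The 2 h libraries stand apart in 38 genes that are on at 2 h and near 0 in naive, against 0 genes the other way. These have 2 RPKM or more on average at 2 h and no overlap, with a naive mean of 5% of that or less. None of the 47 members is among the 38, but 1 near-identical copy of a member is, and what sets these libraries apart was not tested.

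The 12 alveolar macrophage markers were all detected, but their levels shifted. At 24 h 2 were higher and 8 lower of 12, and at 2 h 2 were higher and 4 lower. Of all 11419 tested genes 25.3% were higher and 20.6% lower at 24 h, and 14.7% were higher and 22.0% lower at 2 h. These shares stand beside each marker count in this paragraph. At 24 h Marco was higher (log2FC 2.06) and so was Car4 (log2FC 1.09), while Siglecf (log2FC -1.12), Krt19 (log2FC -1.12), Ear2 (log2FC -0.93) and Itgax (log2FC -0.84) were lower, log2FC being the log2 fold change against naive. Their summed level was 8018.8 to 9339 RPKM at 2 h and 9616 to 11470.5 RPKM at 24 h, against 11575.2 to 11948.2 RPKM in naive. Most of that sum is Chil3, which averaged 7802.4 RPKM at 24 h, against 7780.4 RPKM in naive, and was lower at 2 h (log2FC -0.66). The 8 neutrophil markers summed to 21.7 to 34.1 RPKM at 2 h and 39.6 to 45.5 RPKM at 24 h, against 20.4 to 28.8 RPKM in naive. Of the 3 tested only S100a8 was higher at 24 h, with a mean of 29.8 RPKM, against 10.2 RPKM in naive. Mmp8 averaged 9.84 RPKM at 24 h, against 12.3 RPKM in naive, and did not pass, and Ly6g, which marks neutrophils, was at 0 in all 24 h and naive libraries. The 5 epithelial markers summed to 47.2 to 66.9 RPKM at 2 h and 22.9 to 33.1 RPKM at 24 h, against 55.9 to 60.4 RPKM in naive. Most of that sum in naive is Epcam, so the sum at 24 h follows this gene. Of the 3 tested only Epcam was lower at 24 h, at 12.2 RPKM, against 42.5 RPKM in naive, and Sftpc and Scgb1a1 did not pass. The 6 monocyte markers summed to 4.46 to 5.72 RPKM at 2 h and 2.61 to 4.23 RPKM at 24 h, against 6.04 to 6.45 RPKM in naive, with both tested ones lower at 24 h. Lymphocyte markers, 7 in all, summed to 2.64 to 6.58 RPKM at 2 h and 1.49 to 3.56 RPKM at 24 h, against 9.49 to 13.9 RPKM in naive, and all 4 tested ones were lower at both times. The part of these markers in the results was not tested. Because each library is bulk RNA, fewer cells of a type and less RNA per cell cannot be told apart.

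Promoters were available for 38 of the 47 members, as 46 windows of 300 bases from 250 bases before to 50 after a start in RefSeq (GRCm38.p6, the assembly of mm10). The E-box letters CACGTG were searched on both strands, which are the same for this palindrome. They occurred in 13 of the 38 members (34.2%), against 8.09% of the 27025 genes with a window. The longer letters TCACGTGA, each of which holds a CACGTG, occurred in 7 members (18.4%) and in 1.12% of genes. A still longer form, which adds a set letter at each end of TCACGTGA, occurred in 0 of the 38 members, against 0.37% of genes. The members with TCACGTGA were Atp6v0d1, Atp6v0e, Atp6v1a, Ctsa, Ctsd, Gla and Mcoln1. The other letters TCATGTGA, or their reverse complement TCACATGA, occurred in 6 members (15.8%), against 1.15% of genes. A match describes the letters and is not evidence of binding. Below are 4 of the windows with TCACGTGA, chosen after their values were seen because the 4 genes moved in different ways: Ctsd rose at 24 h, Gla and Atp6v1a rose at both times, and Mcoln1 fell at 24 h. Capitals mark each CACGTG.
Ctsd, chr7:142387778-142388077, minus strand: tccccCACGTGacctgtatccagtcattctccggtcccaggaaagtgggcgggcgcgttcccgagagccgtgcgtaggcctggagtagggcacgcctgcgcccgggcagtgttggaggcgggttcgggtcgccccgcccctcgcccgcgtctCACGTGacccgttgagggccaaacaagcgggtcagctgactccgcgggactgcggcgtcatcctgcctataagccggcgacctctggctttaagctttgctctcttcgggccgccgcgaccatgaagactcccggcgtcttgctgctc
Gla, chrX:134600956-134601255, minus strand: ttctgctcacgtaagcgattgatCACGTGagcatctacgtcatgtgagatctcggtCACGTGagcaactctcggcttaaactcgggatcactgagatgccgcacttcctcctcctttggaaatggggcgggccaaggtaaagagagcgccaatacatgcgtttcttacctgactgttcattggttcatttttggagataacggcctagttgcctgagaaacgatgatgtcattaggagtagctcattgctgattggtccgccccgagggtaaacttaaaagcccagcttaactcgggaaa
Atp6v1a, chr16:44139210-44139509, minus strand: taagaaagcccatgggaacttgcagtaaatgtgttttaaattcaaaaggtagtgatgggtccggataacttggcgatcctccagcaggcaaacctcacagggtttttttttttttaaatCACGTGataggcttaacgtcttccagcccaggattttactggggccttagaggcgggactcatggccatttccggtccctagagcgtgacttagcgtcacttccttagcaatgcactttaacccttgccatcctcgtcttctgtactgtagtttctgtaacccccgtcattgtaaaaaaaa
Mcoln1, chr8:3500269-3500568, plus strand: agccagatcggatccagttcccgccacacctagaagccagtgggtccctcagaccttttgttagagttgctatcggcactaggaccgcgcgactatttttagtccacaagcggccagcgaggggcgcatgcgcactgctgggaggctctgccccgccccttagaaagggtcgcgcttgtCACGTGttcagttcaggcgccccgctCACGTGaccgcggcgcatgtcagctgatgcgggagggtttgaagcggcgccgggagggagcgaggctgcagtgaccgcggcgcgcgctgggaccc
Ctsd holds CACGTG 2 times, beginning 245 and 98 bases before the start, and Gla holds 2, at 227 and 194 bases before it. The single E-box of Atp6v1a begins 131 bases before the start, and those of Mcoln1 begin 71 and 45 bases before it. Of all 7 members with TCACGTGA, 3 rose and 4 did not pass at 2 h. At 24 h 5 rose (Atp6v0d1, Atp6v1a, Ctsa, Ctsd and Gla), 1 fell (Mcoln1) and 1 did not pass (Atp6v0e). The 13 members with CACGTG gave 6 higher and 0 lower at 2 h, and 8 higher and 3 lower at 24 h. Among all tested genes 14.7% rose and 22.0% fell at 2 h, and 25.3% rose and 20.6% fell at 24 h. Among all 47 members 25.5% rose at 2 h and 44.7% at 24 h. A link between the letters and the calls was not tested.

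Most changes of the 47 genes were small, and the enzymes did not move as 1 block. At 2 h 12 members rose, 7 fell and 28 did not pass, which is 25.5% higher and 14.9% lower, against 14.7% higher and 22.0% lower among all 11419 tested genes. The median log2 fold change over the members was 0.02, against -0.04 over all tested genes. At 24 h 21 members rose, 11 fell and 15 did not pass, which is 44.7% higher and 23.4% lower, against 25.3% higher and 20.6% lower among all tested genes, with a median of 0.07, against 0.00. A call here is an adjusted p under 0.05, and all 47 members passed the filter on low values. Below, log2FC is on the log2(RPKM + 1) scale, given ± its SE and with limma's p adjusted over all tested genes. Changes of at least 1.5-fold on the log2 scale were called in 1 member at 2 h (Lgmn) and in 1 at 24 h (Cd63), 2.13% of members each, against 8.84% and 13.1% of all tested genes. The 7 lower members at 2 h became 3 with median-ratio scaling, 3 without naive replicate 3 and 4 without naive replicate 4 or 2 h replicate 1. With median-ratio scaling, which moved the share of all calls that were higher at 2 h to 50.2%, against 40.0%, the members gave 15 higher and 3 lower. For 24 h against naive the members gave 16 higher and 12 lower with median-ratio scaling, and 17 higher and 12 lower with equal totals. The share of all calls that were higher there was 51.9% and 50.2%, against 55.1% in the main fit.

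**Figure D1:**
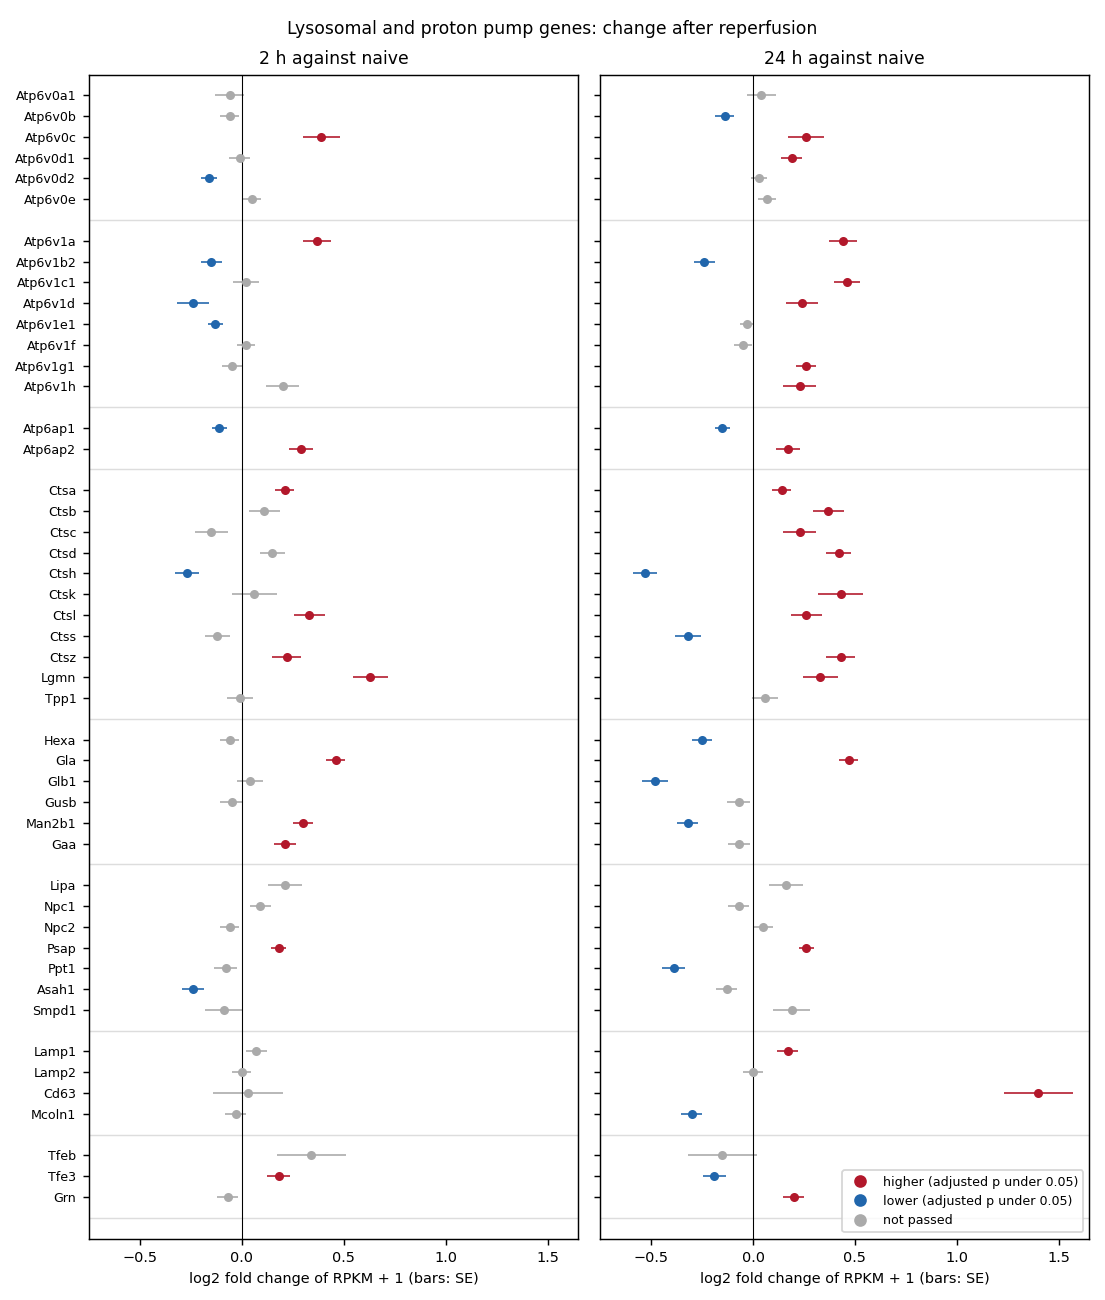
Log2 fold change on the log2(RPKM + 1) scale of each of the 47 members at 2 h against naive (left) and 24 h against naive (right), grouped by role from the V0 sector at the top to the regulators at the bottom. Points are estimates over 4 libraries a group, bars their SE, red higher, blue lower and grey not passed. Cd63 at 24 h, at 1.40, lies far outside the other members at that time, which run from -0.53 to 0.47.

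The V0 sector holds the membrane part of the pump, and its 6 genes changed little. At 2 h 1 rose, 1 fell and 4 did not pass, and at 24 h 2 rose, 1 fell and 3 did not pass, with medians of -0.03 at 2 h and 0.06 at 24 h. That is 16.7% higher and 16.7% lower at 2 h, against 14.7% and 22.0% of all tested genes, and 33.3% higher and 16.7% lower at 24 h, against 25.3% and 20.6%. Atp6v0d2, an isoform of the d subunit that macrophages and osteoclasts use, had 407, 431, 421 and 418 RPKM in naive, 348, 382, 373 and 393 RPKM at 2 h and 421, 422, 429 and 436 RPKM at 24 h. All 4 libraries at 2 h lay below all 4 naive libraries, a fall of 10.7% (log2FC -0.16 ± 0.04, adjusted p = 0.00823). The 24 h libraries overlapped the naive ones (log2FC 0.03 ± 0.04, adjusted p = 0.632). Its levels at 24 h lay wholly above those at 2 h (log2FC 0.19 ± 0.04, adjusted p = 0.00194). Atp6v0d1, the broadly used d isoform, had 103, 103, 106 and 110 RPKM in naive, 106, 101, 102 and 110 RPKM at 2 h and 123, 130, 119 and 111 RPKM at 24 h. It rose at 24 h, 1.14-fold with no overlap with naive (log2FC 0.19 ± 0.052, adjusted p = 0.0107). The 2 h libraries lay within or just below the naive ones (log2FC -0.01 ± 0.052, adjusted p = 0.881). Atp6v0b, a subunit of the proton-carrying ring, had 41.8, 42.5, 42 and 41.7 RPKM in naive, 38.6, 41.4, 39.4 and 42.1 RPKM at 2 h and 39, 40.1, 37.6 and 35.5 RPKM at 24 h. It was lower at 24 h, at 0.905 times the naive mean (log2FC -0.14 ± 0.047, adjusted p = 0.0272). This call was lost without naive replicate 1, 2 or 3 or 24 h replicate 3 or 4 (log2FC -0.14 to -0.11). Atp6v0a1, which forms the proton path beside the ring, and the small subunit Atp6v0e passed in neither comparison with naive, at 0.958 and 1.04 times the naive mean at 2 h and 1.03 and 1.05 times at 24 h.

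Atp6v0c, the main ring subunit, had 64.2, 62.2, 68.3 and 67.7 RPKM in naive, 78, 90, 95.7 and 81.9 RPKM at 2 h and 79.7, 93.1, 74.4 and 68.7 RPKM at 24 h. Both reperfusion groups lay above naive, 1.32-fold at 2 h (log2FC 0.39 ± 0.09, adjusted p = 0.00584) and 1.2-fold at 24 h (log2FC 0.26 ± 0.09, adjusted p = 0.0342). The 24 h call was lost without naive replicate 1 or 2 or 24 h replicate 1 or 2 (log2FC 0.18 to 0.25) and with median-ratio scaling (0.24) or no filter on low values (0.26). A processed pseudogene on chromosome 6, Atp6v0c-ps2, matches the Atp6v0c transcript at 99.8% identity over 465 bases. It had 0.733, 0.271, 0.575 and 2.46 RPKM in naive, 53.3, 54.2, 67.8 and 46.6 RPKM at 2 h and 0.179, 0.992, 0.903 and 4.48 RPKM at 24 h. It is one of the 38 genes that are near 0 in naive, with 157 to 271 reads in each 2 h library and 1 to 7 reads in each naive library. Atp6v0c itself had 3624 to 5695 reads at 2 h and 2529 to 3450 reads in naive. Reads of the gene and its copy cannot be told apart with certainty, so the level of Atp6v0c at 2 h is uncertain. Of 11 pseudogenes elsewhere in the genome that match 7 members at 90% identity or more over at least 200 bases, 6 are in the table, and the other 5 of those averaged at most 0.411 RPKM in every group.

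**Figure D2:**
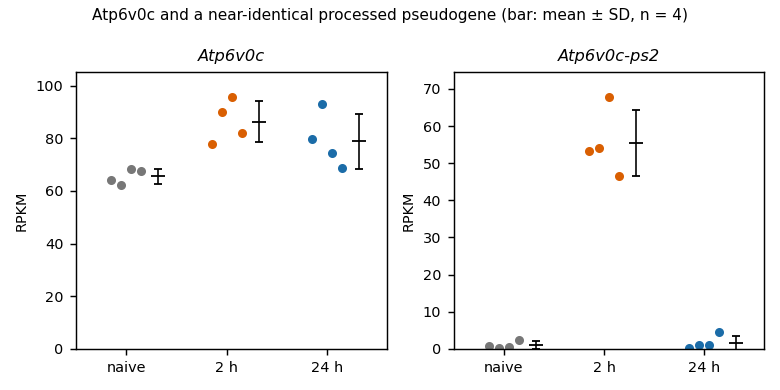
RPKM of Atp6v0c (left) and of its near-identical processed pseudogene Atp6v0c-ps2 (right) in each library, with naive, 2 h and 24 h from left to right, points for libraries and bars for mean ± SD (n = 4). The copy averaged 55.5 RPKM at 2 h and 1.64 RPKM at 24 h, against 1.01 RPKM in naive.

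In the V1 sector, which splits ATP, 1 gene rose, 3 fell and 4 did not pass at 2 h, and 5 rose, 1 fell and 2 did not pass at 24 h. At 2 h 12.5% rose and 37.5% fell, against 14.7% and 22.0% of all tested genes, and at 24 h 62.5% rose and 12.5% fell, against 25.3% and 20.6%. The median log2 fold change was -0.01 at 2 h and 0.24 at 24 h. Atp6v1a, the catalytic subunit, had 19.6, 20.1, 20 and 20.5 RPKM in naive, 23.2, 27.2, 28.7 and 25.9 RPKM at 2 h and 27.8, 30.4, 26 and 26 RPKM at 24 h. It rose 1.31-fold at 2 h (log2FC 0.37 ± 0.068, adjusted p = 0.00174) and 1.38-fold at 24 h (log2FC 0.44 ± 0.068, adjusted p = 0.000275), and in both no library overlapped naive. Atp6v1c1, the subunit that links the V1 and V0 sectors, had 85.4, 80.4, 83.4 and 89.1 RPKM in naive, 80.6, 88.5, 92 and 83.4 RPKM at 2 h and 117, 130, 108 and 111 RPKM at 24 h. It was 1.38-fold higher at 24 h, with every library above every naive and 2 h library (log2FC 0.46 ± 0.064, adjusted p = 0.000124). It did not pass at 2 h (log2FC 0.02 ± 0.064, adjusted p = 0.792). Atp6v1g1, of the outer stalk, had 137, 133, 140 and 147 RPKM in naive, 130, 138, 138 and 134 RPKM at 2 h and 163, 179, 156 and 171 RPKM at 24 h. Like Atp6v1c1, it was higher at 24 h with no overlap, 1.2-fold (log2FC 0.26 ± 0.05, adjusted p = 0.00133).

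Atp6v1d, the central rotor subunit, had 68.9, 71.3, 72.6 and 80.2 RPKM in naive, 57.9, 67.3, 61.6 and 60.7 RPKM at 2 h and 86.1, 100, 84.8 and 77.4 RPKM at 24 h. Of the pump genes only Atp6v1d was lower at 2 h and higher at 24 h. Set against 2 h, 24 h gave 1.41-fold with no overlap (log2FC 0.48 ± 0.078, adjusted p = 0.000288). Against naive it fell by 15.5% at 2 h (log2FC -0.24 ± 0.078, adjusted p = 0.0315). It was 1.19-fold higher at 24 h (log2FC 0.24 ± 0.078, adjusted p = 0.0237), where 24 h replicate 4 lay within the naive range. The 2 h call was lost without naive replicate 2, 3 or 4 or 2 h replicate 1, 3 or 4 (log2FC -0.25 to -0.20) and with median-ratio scaling (-0.19) or no filter on low values (-0.24). The 24 h call was lost without naive replicate 1, 2 or 3 or 24 h replicate 2 (log2FC 0.17 to 0.24). The subunit Atp6v1b2, which binds nucleotide beside Atp6v1a, had 84.8, 79.6, 84.2 and 88.1 RPKM in naive, 74.6, 72.5, 75.3 and 81.7 RPKM at 2 h and 72.2, 66.8, 74.5 and 71.6 RPKM at 24 h. It was lower at 24 h, at 0.847 times the naive mean with no overlap (log2FC -0.24 ± 0.052, adjusted p = 0.0028). The paired subunits A and B2 thus moved in opposite directions. Its 2 h call (log2FC -0.15 ± 0.052, adjusted p = 0.0444) was lost without naive replicate 1, 3 or 4, 2 h replicate 1, 2 or 3 or 24 h replicate 1 or 4 (log2FC -0.15 to -0.12) and with median-ratio scaling (-0.09), no filter on low values (-0.15) or only the compared groups in the fit (-0.15).

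Atp6v1e1, of the outer stalk, had 170, 168, 175 and 177 RPKM in naive, 158, 157, 157 and 159 RPKM at 2 h and 176, 171, 162 and 169 RPKM at 24 h. Every library at 2 h lay below every naive library (log2FC -0.13 ± 0.036, adjusted p = 0.0169), a call lost without naive replicate 3 (log2FC -0.12) and with median-ratio scaling (-0.08). Atp6v1e1 did not pass at 24 h against naive (log2FC -0.03 ± 0.036, adjusted p = 0.563). Atp6v1h, a regulatory subunit, had 5.18, 5.53, 5.6 and 5.9 RPKM in naive, 5.64, 7.31, 7.43 and 5.86 RPKM at 2 h and 6.67, 7.19, 6.67 and 6.27 RPKM at 24 h. It was higher at 24 h with no overlap (log2FC 0.23 ± 0.081, adjusted p = 0.035). That call was lost without naive replicate 1, 2 or 3 or 24 h replicate 1, 2 or 3 (log2FC 0.20 to 0.24) and with median-ratio scaling (0.21), equal totals (0.20) or no filter on low values (0.23). At 2 h Atp6v1h did not pass (log2FC 0.20 ± 0.081, adjusted p = 0.0754) but was called without 2 h replicate 1 or 4 (log2FC 0.24 to 0.26) and with median-ratio scaling (0.24). Atp6v1f, a rotor subunit, passed in no comparison, at 1.01 times the naive mean at 2 h and 0.965 times at 24 h.

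The accessory proteins of the pump moved apart. Atp6ap2, known also as the prorenin receptor, had 74.4, 82.8, 78.9 and 89.3 RPKM in naive, 97, 103, 103 and 93.6 RPKM at 2 h and 91.7, 95.1, 88 and 90.6 RPKM at 24 h. It was 1.22-fold higher at 2 h with no overlap (log2FC 0.29 ± 0.058, adjusted p = 0.00292). At 24 h the groups overlapped (log2FC 0.17 ± 0.058, adjusted p = 0.0337). The 24 h call of Atp6ap2 was lost without naive replicate 1, 2 or 3 or 24 h replicate 1, 2 or 4 (log2FC 0.13 to 0.18) and with median-ratio scaling (0.15), equal totals (0.13) or no filter on low values (0.17). Atp6ap1, which binds the V0 sector, had 40, 40, 40 and 40.5 RPKM in naive, 36.8, 36.5, 37.2 and 37.5 RPKM at 2 h and 36.2, 37.2, 35.9 and 34.9 RPKM at 24 h. Both reperfusion groups lay below naive, at 0.922 times the naive mean at 2 h (log2FC -0.11 ± 0.036, adjusted p = 0.0257) and 0.898 times at 24 h (log2FC -0.15 ± 0.036, adjusted p = 0.00458). The 2 h call was lost without naive replicate 1, 2, 3 or 4 or 2 h replicate 1 or 2 (log2FC -0.12 to -0.11). It was also lost with median-ratio scaling (-0.06) or a block for replicate number (-0.11).

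**Figure D3:**
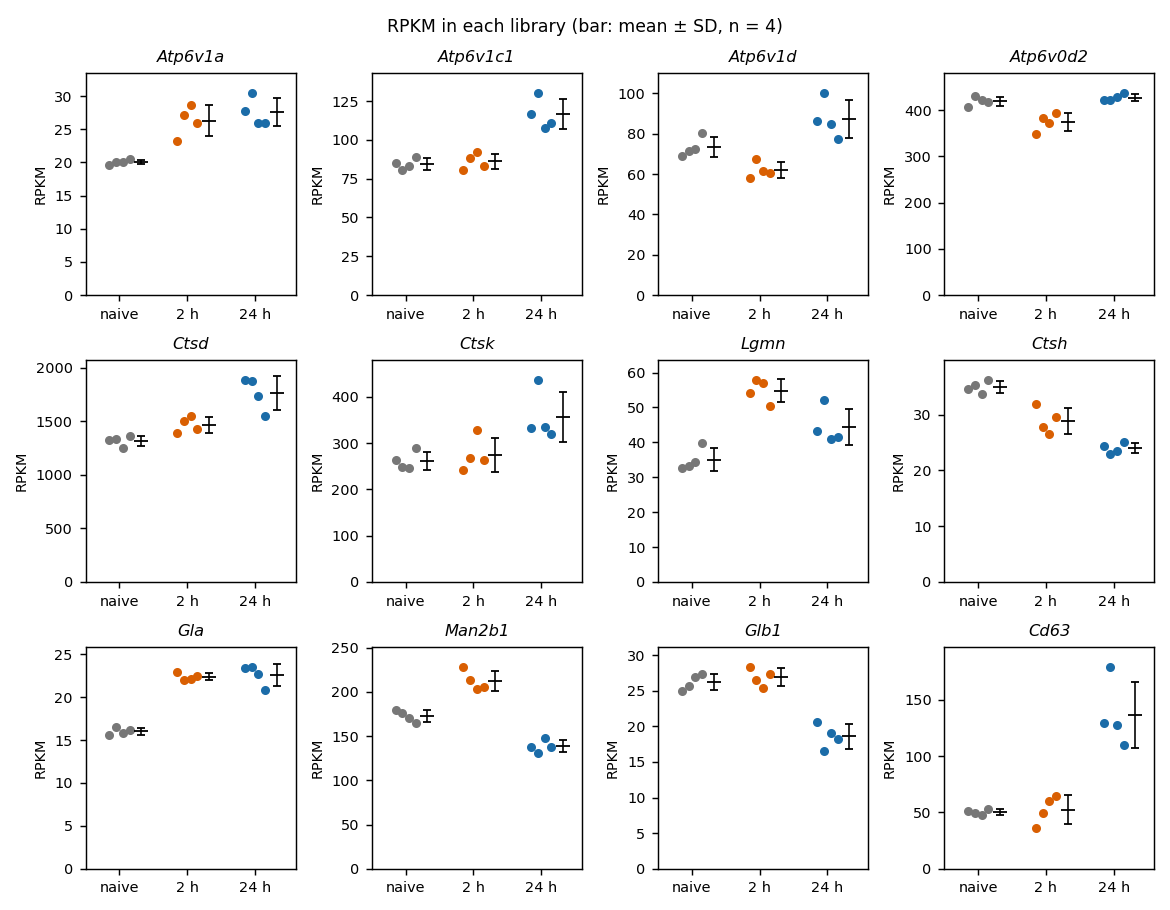
RPKM of 12 members in each library, with naive, 2 h and 24 h from left to right in each panel, points for libraries and bars for mean ± SD (n = 4), each axis starting at 0. Gla sits above naive at both times, Man2b1 above naive at 2 h and below it at 24 h, and Cd63 is at 110 to 179 RPKM at 24 h, above all other libraries.

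Most proteases rose at 24 h. Of 11 genes 8 rose, 2 fell and 1 did not pass, with a median log2 fold change of 0.26, and at 2 h 4 rose, 1 fell and 6 did not pass, with a median of 0.11. That is 72.7% higher and 18.2% lower at 24 h, against 25.3% and 20.6% of all tested genes, and 36.4% higher and 9.09% lower at 2 h, against 14.7% and 22.0%. Lgmn (chromosome 12, 102394084 to 102439813, mm10), the asparaginyl endopeptidase that also processes cathepsins, had 32.6, 33.3, 34.5 and 39.9 RPKM in naive, 54.1, 57.8, 57.1 and 50.4 RPKM at 2 h and 43.3, 52.1, 41 and 41.4 RPKM at 24 h. It was the largest change of the members at 2 h, 1.56-fold with no overlap (log2FC 0.63 ± 0.086, adjusted p = 0.000259). At 24 h it was lower than at 2 h (log2FC -0.30 ± 0.086, adjusted p = 0.0111) and still above every naive library, 1.27-fold (log2FC 0.33 ± 0.086, adjusted p = 0.0079). Ctsl, a cysteine endopeptidase, had 95.6, 97.5, 96.6 and 101 RPKM in naive, 113, 130, 141 and 112 RPKM at 2 h and 116, 130, 112 and 112 RPKM at 24 h. Both times lay wholly above naive, 1.27-fold at 2 h (log2FC 0.33 ± 0.076, adjusted p = 0.00583) and 1.2-fold at 24 h (log2FC 0.26 ± 0.076, adjusted p = 0.0143). Ctsl is overlapped by Gm47123 over 977 transcribed bases on the opposite strand and by the pseudogene Gm49230 over 395 on the same strand. Neither is in the deposited table. A further 16 genes share a stretch of at most 221 bases with Ctsl. The part of such reads in its level was not tested.

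Ctsd, the main aspartic protease of the lysosome, had 1324.2, 1331.1, 1252.1 and 1363.6 RPKM in naive, 1388.5, 1499.6, 1550.7 and 1424.9 RPKM at 2 h and 1884.2, 1880.6, 1736.7 and 1552 RPKM at 24 h. The 24 h libraries all lay above the 2 h libraries, and those above naive, with 1.34-fold at 24 h (log2FC 0.42 ± 0.061, adjusted p = 0.000187) and 1.11-fold at 2 h (log2FC 0.15 ± 0.061, adjusted p = 0.0707). The 2 h difference did not pass and was called without 24 h replicate 4 (log2FC 0.15) and with median-ratio scaling (0.20) or only the compared groups in the fit (0.15). Gm49369, which is not in the deposited table, overlaps Ctsd over 671 transcribed bases on the same strand. Ctsz, a carboxypeptidase, had 524, 518, 497 and 494 RPKM in naive, 571, 621, 620 and 558 RPKM at 2 h and 732, 771, 631 and 614 RPKM at 24 h. It was 1.35-fold higher at 24 h with no overlap (log2FC 0.43 ± 0.071, adjusted p = 0.000424). Its call at 2 h (log2FC 0.22 ± 0.071, adjusted p = 0.0295) was lost without naive replicate 3 or 4 or 2 h replicate 2 or 3 (log2FC 0.20 to 0.21) and with no filter on low values (0.22). Ctsk, known for cutting collagen and elastin, had 264, 249, 247 and 289 RPKM in naive, 242, 268, 328 and 263 RPKM at 2 h and 333, 436, 335 and 319 RPKM at 24 h. It was 1.35-fold higher at 24 h with no overlap (log2FC 0.43 ± 0.11, adjusted p = 0.00747), with replicate 2 above the other 3. It did not pass at 2 h (log2FC 0.06 ± 0.11, adjusted p = 0.691).

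Ctsb, a cysteine protease, had 300, 314, 298 and 312 RPKM in naive, 324, 334, 343 and 322 RPKM at 2 h and 429, 450, 379 and 336 RPKM at 24 h. It was 1.3-fold higher at 24 h with no overlap (log2FC 0.37 ± 0.076, adjusted p = 0.00183). At 2 h it did not pass in the fit of all 12 libraries (log2FC 0.11 ± 0.076, adjusted p = 0.268) and was called with only the compared groups in the fit (0.11). Fdft1, a gene of sterol synthesis, overlaps Ctsb over 774 transcribed bases on the opposite strand. Fdft1 averaged 32.5 RPKM at 24 h, against 17.8 RPKM in naive, with 775 to 1197 reads in each 24 h library, where Ctsb had 14520 to 24385 reads. Whether counting used strand is not given in the sources used here, so reads of such a pair cannot be told apart with certainty. Ctsa, a carboxypeptidase that protects other lysosomal enzymes from breakdown, had 49.5, 47.9, 48.1 and 51 RPKM in naive, 56.9, 58.8, 58.1 and 54.6 RPKM at 2 h and 54.2, 56.6, 55.6 and 50.6 RPKM at 24 h. It was higher at 2 h with no overlap (log2FC 0.21 ± 0.046, adjusted p = 0.00405). The 24 h call, where the groups overlapped (log2FC 0.14 ± 0.046, adjusted p = 0.0258), was lost without naive replicate 2 or 3 or 24 h replicate 1, 2 or 3 (log2FC 0.12 to 0.14) and with median-ratio scaling (0.12) or equal totals (0.11). Ctsa too overlaps a gene on the opposite strand, Pltp, over 316 bases, with 48.7 RPKM at 2 h and 24.1 RPKM at 24 h, against 38.1 RPKM in naive.

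Some proteases fell. Ctsh, an aminopeptidase, had 34.6, 35.4, 33.7 and 36.2 RPKM in naive, 31.9, 27.8, 26.5 and 29.6 RPKM at 2 h and 24.4, 23, 23.5 and 25.1 RPKM at 24 h. It fell at both times with no overlap, to 0.828 times the naive mean at 2 h (log2FC -0.27 ± 0.058, adjusted p = 0.00418) and 0.686 times at 24 h (log2FC -0.53 ± 0.058, adjusted p = 1.97e-05). The 24 h libraries lay below all 2 h libraries too (log2FC -0.26 ± 0.058, adjusted p = 0.00266). Ctss, which trims the invariant chain of MHC class II and also works at neutral pH, was at 908 to 1000 RPKM at 24 h, against 1111.2 to 1346 RPKM in naive (log2FC -0.32 ± 0.063, adjusted p = 0.00136), with no overlap. At 2 h it did not pass (log2FC -0.12 ± 0.063, adjusted p = 0.17). Ctsc, which activates granule serine proteases, was at 137 to 163 RPKM at 24 h, against 112 to 133 RPKM in naive (log2FC 0.23 ± 0.081, adjusted p = 0.0368). Its call was lost without naive replicate 1, 2 or 3 or 24 h replicate 1 or 2 (log2FC 0.17 to 0.24). The Ctsc call was also lost with median-ratio scaling (0.21), equal totals (0.20), no filter on low values (0.23) or a block for replicate number (0.23). Tpp1, a tripeptidyl peptidase, passed in neither comparison with naive, at 0.993 times the naive mean at 2 h and 1.04 times at 24 h.

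Glycosidases, which take sugars off glycoproteins and glycolipids, gave 3 higher, 0 lower and 3 not passed at 2 h and 1 higher, 3 lower and 2 not passed at 24 h. At 2 h 50% rose and 0% fell, against 14.7% and 22.0% of all tested genes, and at 24 h 16.7% rose and 50% fell, against 25.3% and 20.6%. Their medians were 0.12 at 2 h and -0.16 at 24 h. At 24 h against 2 h 0 rose, 4 fell and 2 did not pass, with 30.9% of all tested genes higher and 21.5% lower. Man2b1, the lysosomal alpha-mannosidase, had 180, 176, 170 and 165 RPKM in naive, 228, 213, 203 and 206 RPKM at 2 h and 138, 131, 148 and 138 RPKM at 24 h. It was 1.23-fold higher at 2 h (log2FC 0.30 ± 0.051, adjusted p = 0.00104) and 0.802 times the naive mean at 24 h (log2FC -0.32 ± 0.051, adjusted p = 0.00034), and none of the 3 groups overlapped. At 24 h it was 0.652 times the 2 h mean (log2FC -0.61 ± 0.051, adjusted p = 1.35e-06). Gla (chromosome X, 134588149 to 134601125, mm10), the alpha-galactosidase that clears globotriaosylceramide, had 15.6, 16.5, 15.8 and 16.2 RPKM in naive, 22.9, 22, 22.1 and 22.5 RPKM at 2 h and 23.4, 23.5, 22.7 and 20.8 RPKM at 24 h. It was higher at both times with no overlap and narrow spread, 1.4-fold at 2 h (log2FC 0.46 ± 0.046, adjusted p = 3.68e-05) and 1.41-fold at 24 h (log2FC 0.47 ± 0.046, adjusted p = 8.29e-06).

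Glb1, the beta-galactosidase, had 24.9, 25.6, 26.9 and 27.3 RPKM in naive, 28.3, 26.5, 25.4 and 27.4 RPKM at 2 h and 20.6, 16.5, 19 and 18.2 RPKM at 24 h. It did not pass at 2 h (log2FC 0.04 ± 0.064, adjusted p = 0.686). Glb1 fell at 24 h to 0.71 times the naive mean with no overlap (log2FC -0.48 ± 0.064, adjusted p = 0.000101). Hexa, the alpha subunit of beta-hexosaminidase, had 364, 367, 357 and 365 RPKM in naive, 360, 345, 337 and 357 RPKM at 2 h and 336, 294, 307 and 287 RPKM at 24 h. It was likewise lower at 24 h with no overlap (log2FC -0.25 ± 0.048, adjusted p = 0.00119) and did not pass at 2 h (log2FC -0.06 ± 0.048, adjusted p = 0.383). Gaa, which breaks down glycogen, had 11.3, 11.6, 10.1 and 10.7 RPKM in naive, 13.8, 12.2, 12.9 and 12.2 RPKM at 2 h and 10.4, 10.4, 10.4 and 9.95 RPKM at 24 h. It was higher at 2 h with no overlap (log2FC 0.21 ± 0.054, adjusted p = 0.00994) and lower at 24 h than at 2 h (log2FC -0.29 ± 0.054, adjusted p = 0.000849). Gaa at 24 h did not pass against naive (log2FC -0.07 ± 0.054, adjusted p = 0.28). Gusb, the beta-glucuronidase, passed in no comparison, at 0.964 times the naive mean at 2 h and 0.957 times at 24 h.

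Among the 7 lipid genes 1 rose, 1 fell and 5 did not pass at each time, with medians of -0.06 at 2 h and 0.05 at 24 h. The 14.3% in each direction compare with 14.7% higher and 22.0% lower of all tested genes at 2 h, and with 25.3% and 20.6% at 24 h. Psap, the precursor of the saposins that help enzymes reach membrane lipids, had 427, 420, 413 and 438 RPKM in naive, 483, 484, 487 and 475 RPKM at 2 h and 511, 501, 536 and 485 RPKM at 24 h. It was higher at both times with no overlap, 1.14-fold at 2 h (log2FC 0.18 ± 0.037, adjusted p = 0.0026) and 1.2-fold at 24 h (log2FC 0.26 ± 0.037, adjusted p = 0.000141). Ppt1, which removes fatty acids from proteins, had 51.1, 54.1, 54.3 and 53.4 RPKM in naive, 52.6, 51, 47.7 and 50.5 RPKM at 2 h and 42, 36.2, 42.5 and 40.8 RPKM at 24 h. It fell at 24 h to 0.758 times the naive mean with no overlap (log2FC -0.39 ± 0.055, adjusted p = 0.000131) and did not pass at 2 h (log2FC -0.08 ± 0.055, adjusted p = 0.301). Asah1, acid ceramidase, had 67.7, 70.4, 72.5 and 74.3 RPKM in naive, 62.8, 62.1, 56.7 and 59.4 RPKM at 2 h and 63, 61.4, 69.2 and 66.7 RPKM at 24 h. It was lower at 2 h with no overlap (log2FC -0.24 ± 0.052, adjusted p = 0.00441). At 24 h Asah1 did not pass (log2FC -0.13 ± 0.052, adjusted p = 0.0619) but was called without naive replicate 1 or 24 h replicate 3 (log2FC -0.16 to -0.15) and with median-ratio scaling (-0.15) or equal totals (-0.16).

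Lipa, the acid lipase that frees cholesterol from its esters, was 1.16 times the naive mean at 2 h and 1.12 times at 24 h and passed at neither time. It was called at 2 h without 2 h replicate 4 (log2FC 0.28) and with median-ratio scaling (0.26) or voom on recovered reads (0.21). At 24 h it was called without 2 h replicate 3 (log2FC 0.16) and with only the compared groups in the fit (0.16). Npc2 and Npc1, which move cholesterol out of the lysosome, did not pass against naive. Npc2 had a log2FC of -0.06 at 2 h and 0.05 at 24 h, and Npc1 of 0.09 at 2 h and -0.07 at 24 h. Smpd1, acid sphingomyelinase, did not pass against naive either. At 24 h (log2FC 0.19 ± 0.09, adjusted p = 0.117) it was called without 24 h replicate 4 (log2FC 0.27). Smpd1 was at 9.63 to 12.6 RPKM at 24 h, against 9.64 to 10.6 RPKM in naive.

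Cd63 (chromosome 10, 128900989 to 128912822, mm10), a tetraspanin of late endosomes, lysosomes and exosomes, showed the largest change of all members. It had 51.5, 49.3, 47.6 and 53 RPKM in naive, 35.9, 49.8, 59.9 and 64.5 RPKM at 2 h and 129, 179, 128 and 110 RPKM at 24 h. At 24 h it was 2.71-fold higher than in naive (log2FC 1.40 ± 0.17, adjusted p = 5.35e-05) and 2.6-fold higher than at 2 h (log2FC 1.37 ± 0.17, adjusted p = 4.46e-05), with no overlap in either. At 2 h it did not pass (log2FC 0.03 ± 0.17, adjusted p = 0.919), and its libraries spread to both sides of the naive range. Its pseudogene Cd63-ps averaged 0.307 RPKM at 24 h, against 0.277 RPKM in naive. The other membrane proteins changed less. Lamp1, the most used marker of lysosomal membranes, was at 490 to 574 RPKM at 24 h, against 456 to 494 RPKM in naive (log2FC 0.17 ± 0.051, adjusted p = 0.0174). The Lamp1 call was lost without naive replicate 3 or 24 h replicate 1 (log2FC 0.14 to 0.15) and with no filter on low values (0.17). Its partner Lamp2 had log2 fold changes of 0.00 at 2 h and 0.00 at 24 h and passed at neither time. Mcoln1, a calcium channel of the lysosomal membrane, had 15.3, 15.1, 14.9 and 14.8 RPKM in naive, 15, 14.6, 14 and 15.2 RPKM at 2 h and 12.5, 12.5, 12.3 and 10.8 RPKM at 24 h. It fell at 24 h to 0.801 times the naive mean with no overlap (log2FC -0.30 ± 0.052, adjusted p = 0.000593) and did not pass at 2 h (log2FC -0.03 ± 0.052, adjusted p = 0.697).

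The regulators Tfeb and Tfe3 were at low values, with 399 to 1210 and 431 to 913 reads in a library. Tfeb had 5.08, 4.2, 5.51 and 4.4 RPKM in naive, 3.96, 7.89, 8.52 and 5.75 RPKM at 2 h and 4.62, 4.06, 4.28 and 3.9 RPKM at 24 h. Among the 2 h libraries replicates 2 and 3 lay above all naive libraries and replicate 1 below them. The gene did not pass against naive at 2 h (log2FC 0.34 ± 0.17, adjusted p = 0.143) or at 24 h (log2FC -0.15 ± 0.17, adjusted p = 0.507). It was called at 2 h without 2 h replicate 1 (log2FC 0.52). At 24 h it was lower than at 2 h (log2FC -0.49 ± 0.17, adjusted p = 0.0309). This was lost without 2 h replicate 2 or 3 or 24 h replicate 2, 3 or 4 (log2FC -0.49 to -0.36) and with no filter on low values (-0.49) or only the compared groups in the fit (-0.49). Tfe3 had 2.11, 1.89, 2.13 and 1.86 RPKM in naive, 2.29, 2.33, 2.52 and 2.43 RPKM at 2 h and 1.71, 1.57, 1.59 and 1.64 RPKM at 24 h. It was higher at 2 h (log2FC 0.18 ± 0.056, adjusted p = 0.0248) and lower at 24 h (log2FC -0.19 ± 0.056, adjusted p = 0.0148), with no overlap between any 2 groups. Its 2 h call was lost without naive replicate 2 or 4 or 2 h replicate 3 (log2FC 0.16) and with only the compared groups in the fit (0.18). Mitf and Tfec, the other genes of that family, were not members, and belong to the wider list below. Mitf averaged 7.96 ± 0.956 RPKM at 2 h and 5.17 ± 0.388 RPKM in naive (SD, n = 4 each, log2FC 0.53, adjusted p = 0.000963). Tfec averaged 71.5 ± 13.8 RPKM at 2 h and 100 ± 7.86 RPKM in naive (SD, n = 4 each, log2FC -0.50, adjusted p = 0.0102). Grn, the precursor of the granulin peptides and a protein of the lysosome, was 1.15-fold higher at 24 h with overlap (log2FC 0.20 ± 0.051, adjusted p = 0.0072) and did not pass at 2 h (log2FC -0.07 ± 0.051, adjusted p = 0.329).

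Over both times 9 members were higher at each, which is 19.1%, against 4.63% of all tested genes: Atp6v0c, Atp6v1a, Atp6ap2, Ctsa, Ctsl, Ctsz, Lgmn, Gla and Psap. A further 3 were lower at each, Atp6v1b2, Atp6ap1 and Ctsh, which is 6.38%, against 7.89% of all tested genes. Another 11 were higher at 24 h without passing at 2 h (23.4%, against 16.2% of all tested genes) and 6 were lower (12.8%, against 11%). The calls at 2 h that did not pass at 24 h were 1 higher (2.13%, against 8.31%) and 3 lower (6.38%, against 9.65%). Man2b1 and Tfe3 were higher at 2 h and lower at 24 h (4.26%, against 1.73%), and Atp6v1d was lower at 2 h and higher at 24 h (2.13%, against 4.47%). The remaining 11 passed at neither time (23.4%, against 36.1%). Both comparisons share the naive libraries, so these shares carry no test. They also rest on calls of the main fit, some of which were lost in other settings, as given above. Among the 9 these are the 24 h calls of Atp6v0c, Atp6ap2 and Ctsa and the 2 h call of Ctsz. Among the 3 they are the 2 h calls of Atp6v1b2 and Atp6ap1. Set directly against 2 h, 24 h gave 14 members higher (29.8%), 12 lower (25.5%) and 21 not passed, near the 30.9% higher and 21.5% lower of all tested genes. The median was 0.01, against 0.05 over all tested genes. Changes of at least 1.5-fold on the log2 scale were called in 2 members there, Cd63 higher and Man2b1 lower, which is 4.26%, against 17.5% of all tested genes. With median-ratio scaling, where 49.8% of all calls were higher, against 59.0%, that comparison gave 9 members higher and 18 lower.

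As a share of library reads, the 47 members held 3.6 ± 0.0493% at 2 h and 3.83 ± 0.18% at 24 h, against 3.4 ± 0.0862% in naive (mean ± SD, n = 4 each). Glycosidases held 0.229 ± 0.00715% at 2 h, where every library was above naive, and 0.183 ± 0.0061% at 24 h, where every library was below it, against 0.211 ± 0.00365% in naive. Proteases held 1.69 ± 0.0311% at 2 h and 1.88 ± 0.134% at 24 h, against 1.59 ± 0.0589% in naive. The 16 pump genes held 0.49 ± 0.0148% at 2 h and 0.514 ± 0.0149% at 24 h, against 0.49 ± 0.00937% in naive. The lipid genes held 0.903 ± 0.0177% at 2 h and 0.928 ± 0.0322% at 24 h, against 0.821 ± 0.0173% in naive. The pump shares of the groups overlapped, and the protease shares at 24 h lay above naive in all 4 libraries. These sums follow their most read genes, Ctsd and Psap among them, and carry no test.

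**Figure D4:**
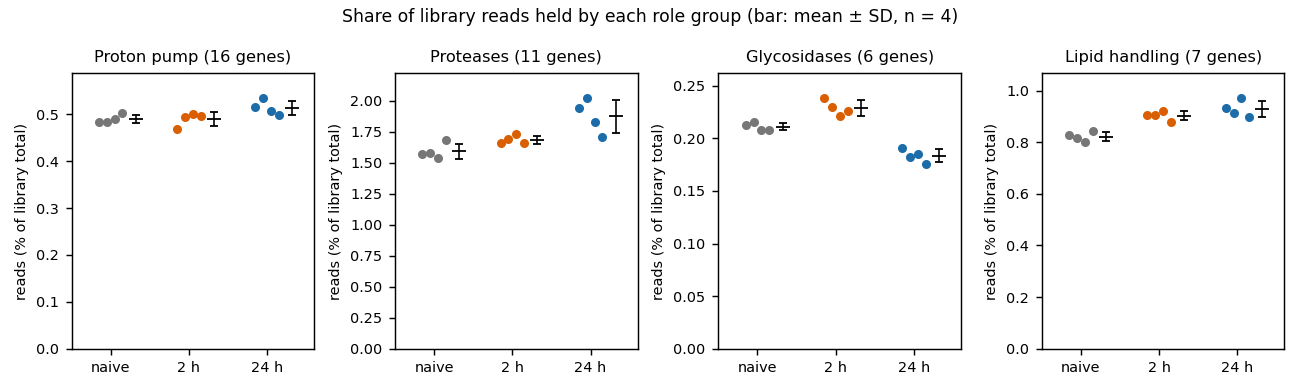
Percent of library reads held by the pump genes, proteases, glycosidases and lipid genes in each library, with naive, 2 h and 24 h from left to right, points for libraries and bars for mean ± SD (n = 4), each axis starting at 0. Glycosidases average 0.229% at 2 h and 0.183% at 24 h, against 0.211% in naive, and proteases 1.88% at 24 h, against 1.59% in naive.

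A wider list of other lysosomal genes, 127 in the table and 110 tested, gave 24 higher, 16 lower and 70 not passed at 2 h and 30 higher, 25 lower and 55 not passed at 24 h. At 2 h 21.8% were higher and 14.5% lower, against 14.7% and 22.0% of all tested genes, and at 24 h 27.3% and 22.7%, near the 25.3% and 20.6% of all tested genes. Its medians were -0.03 at 2 h and 0.00 at 24 h. Its single lists hold 8 to 22 tested genes each, against the same shares of all tested genes. The other pump subunits and assembly factors, 10 tested, gave 3 higher and 0 lower at 2 h and 1 higher and 1 lower at 24 h. Atp6v0e2, a pump subunit outside the 47, averaged 4.89 ± 1.03 RPKM at 2 h and 0.305 ± 0.396 RPKM in naive (SD, n = 4 each). Its log2FC at 2 h was 2.20 (adjusted p = 1.7e-05), from 55 to 101 reads in each 2 h library and 1 to 10 in each naive library. By 24 h it averaged 0.278 ± 0.256 RPKM and did not pass (log2FC -0.01, adjusted p = 0.981). Tcirg1, another pump subunit outside the 47, averaged 29.3 ± 2.85 RPKM at 2 h and 22.1 ± 0.943 RPKM in naive, with no overlap (SD, n = 4 each, log2FC 0.39, adjusted p = 0.00156). With a 24 h mean of 22.1 RPKM it did not pass there (log2FC 0.00, adjusted p = 0.99). Ccdc115, an assembly factor of the pump, averaged 23.3 ± 2.1 RPKM at 2 h and 16.9 ± 1.32 RPKM in naive (SD, n = 4 each, log2FC 0.45, adjusted p = 0.00104). Dmxl2, another, averaged 13.1 ± 1.32 RPKM at 24 h and 21.1 ± 1.1 RPKM in naive (SD, n = 4 each, log2FC -0.65, adjusted p = 2.61e-05). The other proteases and their inhibitors, 8 tested, gave 1 higher and 3 lower at 2 h and 3 higher and 4 lower at 24 h. Ctsf, a cathepsin outside the 47, averaged 7.13 ± 1.85 RPKM at 24 h and 17.3 ± 1.28 RPKM in naive (SD, n = 4 each, log2FC -1.20, adjusted p = 4.5e-05), a larger fall than that of any member. The 18 tested glycosidases and sulfatases gave 3 higher and 3 lower at 2 h and 4 higher and 1 lower at 24 h. The 14 lipid and phosphate hydrolases gave 1 higher and 2 lower at 2 h and 6 higher and 5 lower at 24 h. Pla2g15, a lysosomal phospholipase, averaged 164 ± 27.3 RPKM at 2 h and 146 ± 10.9 RPKM at 24 h, against 240 ± 9.36 RPKM in naive (SD, n = 4 each, log2FC -0.56, adjusted p = 0.00155 at 2 h and log2FC -0.71, adjusted p = 0.000141 at 24 h).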

How the data were processed

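The authors deposited RNA-seq values of alveolar macrophages in RPKM, one table with a column for each library and a row for each Ensembl gene. Tools named per the submitters' processing notes are bcl2fastq, TopHat2 and HTSeq, with mm10 as build. Tool versions, annotation, gene lengths and strand setting are not given in these sources. Groups came from the time point label, and 0 value columns were left unused. RPKM steps gave back whole reads for 11396 of 11419 tested genes (99.8%, within 0.02 of a read). For a gene of 1 kb, the limit that 3 reads set on a count of 0 is 0.25 to 0.491 RPKM, for counting error only.

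Symbols and positions came from GENCODE vM21 and promoters from RefSeq. Genes reaching 1 RPKM in at least 4 libraries were tested with limma 3.58.1 (R 4.3.3) on log2(RPKM + 1), over all 12 libraries with a variance trend. Every adjusted p is from this two-sided test, with Benjamini-Hochberg adjustment over 11419 genes in each comparison. The scale understates changes of low genes. Where a fold is given as such, it divides the mean RPKM of both groups. Since RPKM is not a count, voom on the recovered reads was run as an alternative. BLAST 2.17.0 was used to find near-identical copies. Other alternatives were median-ratio scaling, equal totals (TPM), pseudocounts of 0.1 and 0.5, the filter dropped or set at 5 RPKM, fits of only the compared groups, a block for replicate number, and fits without each library in turn.

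The 47 members, the wider list, the markers and the tests were chosen with earlier results of these data known. Members get all library values if they passed in at least 1 comparison without overlap and the higher group averaged 5 RPKM or more, up to 5 per role and comparison against naive. Atp6v0d1, Atp6v0d2, Mcoln1, Tfeb and Tfe3 get them whatever they show. Of the wider list the 4 largest rises and 4 largest falls against naive that meet the same criteria are named. Atp6v0e2, whose higher group averaged under 5 RPKM, was added after its values were seen. So was Tcirg1, which is not among the 4 largest rises. Some marker results are not reported here.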

Additional observations from a re-analysis of the deposited data

Results flagged for a closer look

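Of the 141 groups of 4 libraries that the members give, 7 held a library that stood apart from the other 3 by Dixon's test, which chance does in about 1 of 20 groups. In 24 h replicate 2, Ctsk was at 436 RPKM with the others at 319 to 335 RPKM, and Ctsc at 163 RPKM with the others at 137 to 140 RPKM. In 24 h replicate 4, Gaa was at 9.95 RPKM with the others at 10.4 RPKM, Smpd1 at 9.63 RPKM with the others at 12.2 to 12.6 RPKM, and Mcoln1 at 10.8 RPKM with the others at 12.3 to 12.5 RPKM. Gusb was at 56.8 RPKM in 2 h replicate 2 with the others at 52.2 to 52.8 RPKM. Atp6ap1 was at 40.5 RPKM in naive replicate 4 with the others at 40.0 RPKM.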

How the results depend on the processing

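Of 141 single-gene differences (47 members, 3 comparisons) 77 were called, and 52 of these kept their call and direction in all 21 other settings. A further 2, Tfe3 at 24 h against naive and against 2 h, kept them in the 20 settings that test Tfe3, which is not tested with the filter at 5 RPKM. In at least 1 setting 23 calls were lost and 17 others gained, and 0 called differences changed sign. Differences that were not called changed sign in 18 cases, the largest of 0.08 on the log2 scale, which were not counted as reversals. Median-ratio scaling gave 3 members lower at 2 h against naive, with a median of 0.08, and 9 higher at 24 h against 2 h, with a median of -0.06. The filter at 5 RPKM, which tests fewer genes, gave 1544 genes lower at 2 h against naive, and 2307 higher and 1616 lower at 24 h against 2 h. Leaving out 1 library gave 3 to 7 members lower at 2 h, a median of -0.01 to 0.05 at 2 h and of 0.06 to 0.12 at 24 h against naive, and 15 to 22 members higher at 24 h against naive. Over all tested genes the same fits gave 2073 to 2758 lower at 2 h and 2590 to 2971 higher at 24 h, both against naive.

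Libraries with the same replicate number showed no shared deviation from their group means. Those deviations correlated at -0.0426 to 0.0548 for the same number and -0.129 to 0.0777 for different numbers. They cannot show whether libraries of the same number were handled together. With the replicate block the members gave 12 higher and 6 lower at 2 h, 20 higher and 11 lower at 24 h, and 13 higher and 12 lower at 24 h against 2 h. The calls without it that were not made were those of Atp6ap1 at 2 h, Ctsc at 24 h and Atp6v1e1 at 24 h against 2 h. Relative counting error is largest for the genes with fewest reads, of which Smpd1 had 142 in a library.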

Other observations

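The wider list also holds 22 tested membrane proteins and transporters, of which 6 were higher and 3 lower at 2 h and 3 higher and 8 lower at 24 h. Of all 11419 tested genes 14.7% were higher and 22.0% lower at 2 h, and 25.3% higher and 20.6% lower at 24 h. Tpcn2, a cation channel of endosomes and lysosomes, averaged 22.4 ± 6.2 RPKM at 2 h and 18.9 ± 0.544 RPKM at 24 h, against 11.5 ± 1.45 RPKM in naive (SD, n = 4 each, at 2 h log2FC 0.87, adjusted p = 0.00139, at 24 h log2FC 0.68, adjusted p = 0.00392). Mcoln3, a relative of the channel Mcoln1, averaged 46.2 ± 5.06 RPKM at 2 h and 56.2 ± 3.16 RPKM at 24 h, against 83.6 ± 1.67 RPKM in naive (SD, n = 4 each, at 2 h log2FC -0.85, adjusted p = 1.05e-05, at 24 h log2FC -0.57, adjusted p = 5.13e-05). Mcoln3 was thus lower at 2 h, where Mcoln1 did not pass, and the difference between the channels was not tested. Litaf, a protein of late endosomes, was 1.41-fold higher at 2 h (log2FC 0.48, adjusted p = 0.000257), and Slc17a5, which carries sialic acid out of the lysosome, was 0.554 times the naive mean at 24 h (log2FC -0.71, adjusted p = 9.56e-05).

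Of 16 tested regulators 4 were higher and 4 lower at 2 h and 7 higher and 2 lower at 24 h. Lamtor1, which anchors a signalling complex on the lysosome, averaged 69.6 ± 3.54 RPKM at 24 h and 40.9 ± 1.3 RPKM in naive (SD, n = 4 each, log2FC 0.75, adjusted p = 2.37e-07). Gpnmb, a glycoprotein that rises in lysosomal storage, averaged 210 ± 33.6 RPKM at 24 h and 124 ± 7.36 RPKM in naive (SD, n = 4 each, log2FC 0.75, adjusted p = 0.000439). Zkscan3, a repressor of lysosomal genes, averaged 3.19 ± 0.436 RPKM at 2 h and 3.36 ± 0.21 RPKM at 24 h, against 5.51 ± 0.431 RPKM in naive (SD, n = 4 each, at 2 h log2FC -0.64, adjusted p = 0.000155, at 24 h log2FC -0.58, adjusted p = 0.000124). Of 22 tested genes that sort proteins to the lysosome 6 were higher and 1 lower at 2 h and 6 higher and 4 lower at 24 h. Ap1s1, a clathrin adaptor subunit, averaged 29.2 ± 1.17 RPKM at 24 h and 17.6 ± 0.656 RPKM in naive (SD, n = 4 each, log2FC 0.70, adjusted p = 9.37e-07).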
